A study of Homo sapiens with 9 samples.

Results

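The keratin family was examined by mRNA sequencing in S2-007, S2-028 and S2-020, human pancreatic ductal adenocarcinoma cell lines that are sublines of SUIT-2. The 9 libraries comprised 3 per line, from untreated cells in DMEM with 10% inactivated fetal bovine serum. Maspin, a serine protease inhibitor family protein, lies in nucleus and cytoplasm in S2-007 (panMaspin) and in the cytoplasm alone in S2-028 (cytMaspin), whereas it is weakly detected in S2-020. The lines thus differ in their whole history as sublines, each group is 1 line, and no result below can be tied to maspin. The labels do not say whether the libraries of a line came from separate cultures, so that p-values measure the spread between these libraries, which may be technical. Keratins were chosen by gene symbol, as every row of the deposited count table named KRT, a number and at most one of the letters A to C, which left out keratin-associated proteins and pseudogenes. This gave 55 keratins of 42717 genes, 29 of type I and 26 of type II.

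Keratins are the intermediate filament proteins of epithelial cells. Every keratin filament is built from pairs of one acidic type I and one basic or neutral type II chain, and which pair a cell makes follows its kind of epithelium. Simple epithelia such as the pancreatic duct use KRT8 with KRT18, joined by KRT7 and KRT19, and these are in wide use as markers of ductal adenocarcinoma. Stratified epithelia use KRT5 with KRT14 in the basal layer and switch to other pairs above it, and further keratins are reserved for hair and its root sheath. The type II genes and KRT18 lie together on chromosome 12, and the other type I genes on chromosome 17.

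The total count was between 60328748 and 86253923 reads per library. Levels are given as CPM, counts scaled to a common library size, after TMM normalization, which sets the libraries against each other through the bulk of the genes. Epithelial markers (EPCAM, CDH1, CLDN4, CLDN7, ESRP1) summed to 739 to 765 CPM in S2-007, 924 to 966 CPM in S2-028 and 157 to 162 CPM in S2-020, in which CDH1 was at 4.55 ± 0.271 CPM and ESRP1 at 0.599 ± 0.224 CPM (mean ± SD here and below, n = 3). Of the markers of pancreatic duct, SOX9, CFTR, MUC1 and the members KRT7 and KRT19 each reached 1 CPM in every line. Acinar markers summed to at most 1.43 CPM, fibroblast markers to at most 5.75 CPM, leukocyte markers to at most 4.56 CPM and endothelial markers to at most 9.84 CPM in any library, most of the last from PECAM1. In bulk RNA, fewer cells making a keratin and less of its mRNA per cell cannot be told apart.

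Keratins took 0.928% to 0.973% of all counts in S2-007, 0.421% to 0.521% in S2-020 and 1.55% to 1.75% in S2-028, so that the ranges of the lines did not overlap. Only 13 of the 55 keratins reached a mean of 1 CPM in at least one line: KRT5, KRT7, KRT8, KRT73, KRT80 and KRT81 of type II and KRT10, KRT13, KRT15, KRT18, KRT19, KRT23 and KRT222 of type I. The other 42 had means of at most 0.896 CPM (KRT86) and no count above 89 in any library. Of these 42, 31 never exceeded 20 counts, 20 stayed under 10 counts, and 3 never exceeded 3 counts, a floor at or under which this depth does not separate a low level from none.

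**Figure D1:**
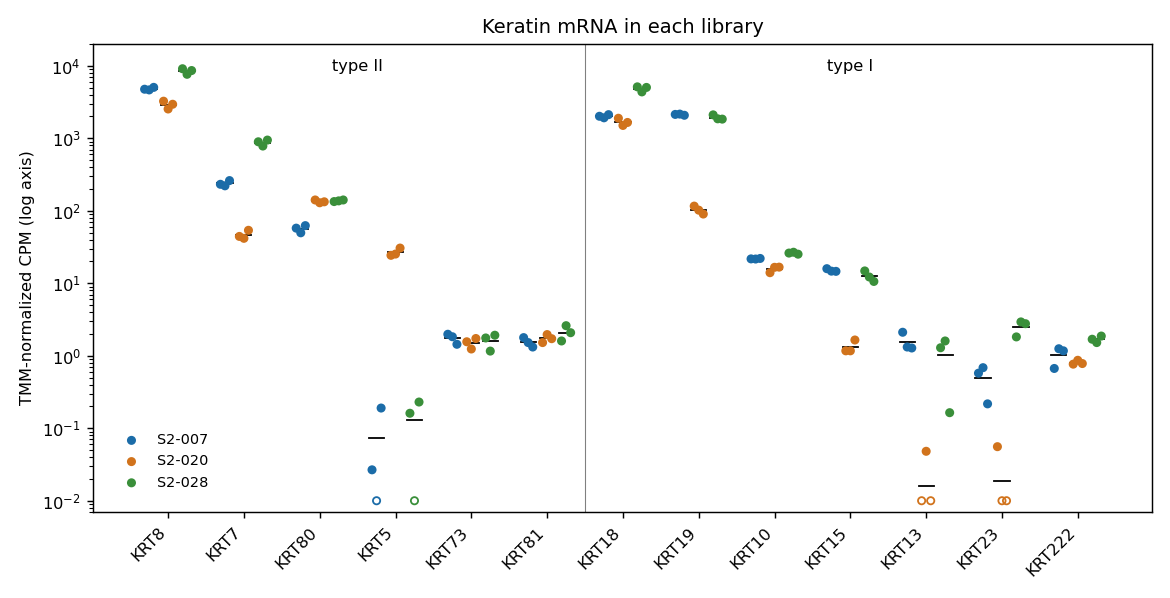
TMM-normalized CPM on a log axis for the 13 keratins that reached 1 CPM. Each point is 1 library, each dash the mean of the 3 libraries of a line, and open circles on the lower edge are libraries with a count of 0. KRT5 stood at 24.3 to 30.6 CPM in S2-020 alone, KRT19, KRT7 and KRT15 were lowest in S2-020, and KRT80 was lowest in S2-007.

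Genes were tested with the quasi-likelihood test of edgeR on all genes, 2 lines at a time, and called at an adjusted p under 0.05 with at least a 1.5-fold difference. In S2-028 against S2-007, 23 of the 55 keratins passed the filter on low counts, of which 5 were higher and 3 lower (34.8%), whereas 18.4% of all 26371 genes tested were called, 10.2% higher and 8.19% lower. The median log2 fold change of these 23 keratins was -0.12, and that of all genes was 0.002. In S2-020 against S2-007, 25 keratins were tested, with 3 higher and 10 lower (52.0%), and 21.6% of all genes were called, 9.57% higher and 12.1% lower. The median was -0.76 for the keratins tested and -0.053 for all genes. In S2-028 against S2-020, 21 keratins were tested, with 11 higher and 2 lower (61.9%), whereas 22.2% of all genes were called, 12.1% higher and 10.1% lower. The median was 0.72 for the keratins tested and 0.025 for all genes. The comparisons share libraries, so that they are not independent of each other. The keratins tested passed the filter partly through the line in which they were high, and the shares therefore do not speak for the family as a whole. With at least 10 counts required in every library, 6 keratins were called in S2-028 against S2-007, 7 in S2-020 against S2-007 and 7 in S2-028 against S2-020. That filter tests fewer genes, and the number of keratins tested under it is not given here. These counts can therefore not be set against the shares above.

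**Figure D2:**
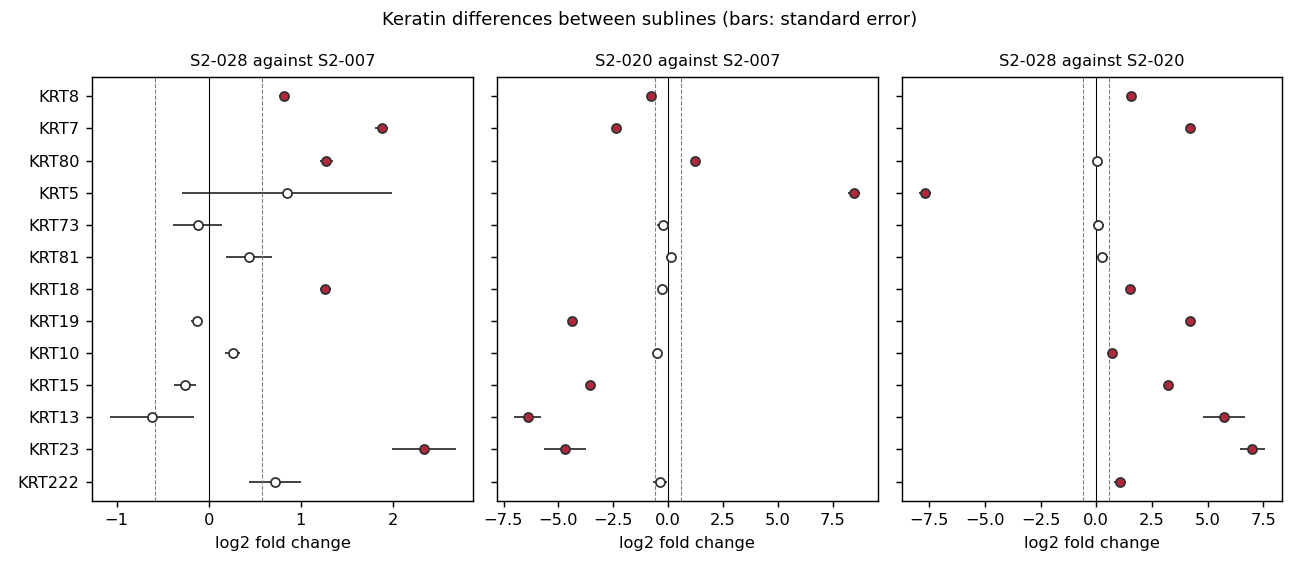
Log2 fold changes of the 13 keratins with bars of 1 standard error, calculated back from the test, in each comparison of 2 lines. Filled points were called and open points were not, dashed lines mark a 1.5-fold difference, and the first panel has a narrower scale than the others. S2-028 against S2-007 shows 5 called keratins, all higher, while KRT5 stands opposite to KRT7, KRT13, KRT15, KRT19 and KRT23 in both comparisons with S2-020.

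KRT8 and KRT18, the pair found in every simple epithelium, were the most abundant type II and, in S2-020 and S2-028, the most abundant type I keratin. KRT8 was at 4753, 4649 and 5042 CPM in the libraries of S2-007, 3249, 2537 and 2948 CPM in S2-020, and 9112, 7636 and 8604 CPM in S2-028. The 3 lines did not overlap, with S2-028 highest and S2-020 lowest. Its log2 fold change was 0.82 ± 0.0569 (SE) in S2-028 against S2-007 (adjusted p = 1.88e-10), -0.76 ± 0.0613 in S2-020 against S2-007 (adjusted p = 3.40e-09) and 1.54 ± 0.0705 in S2-028 against S2-020 (adjusted p = 9.15e-13). KRT18 was at 2013, 1917 and 2119 CPM in S2-007, 1890, 1504 and 1654 CPM in S2-020, and 5125, 4366 and 5032 CPM in S2-028. KRT18 was higher in S2-028 than in S2-007 by 1.27 ± 0.0597 on the log2 scale (adjusted p = 3.22e-13) and than in S2-020 by 1.53 ± 0.0685 (adjusted p = 6.79e-13). S2-020 lay below S2-007 in each library for KRT18 too, but the log2 fold change of -0.29 ± 0.0615 (adjusted p = 6.20e-04) was under the size required for a call. Of the KRT18 transcript, 74.77% in words of 31 bases also occurred in other genes, chiefly its pseudogenes and KRT8, and for KRT8 the share was 61.06%. KRT18 also has 26.54% of its exon bases under the antisense gene KRT8, so that the split of reads between this pair is less certain than for other members. Of their pseudogenes, only KRT8P41 (between 8 and 58 reads per library) and KRT18P55 (at most 16) were counted. The pseudogenes that share most with them, KRT8P3 and KRT18P11, were not among those counted. These low counts therefore do not show where reads of the shared sequence went.

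KRT19, the type I keratin without a long tail domain that marks duct cells, separated S2-020 from the other lines. It was at 2135, 2157 and 2078 CPM in S2-007, 2105, 1857 and 1839 CPM in S2-028, and 116, 102 and 90.2 CPM in S2-020. KRT19 was thus 21.1-fold lower in S2-020 than in S2-007 (log2 fold change -4.40 ± 0.0743, adjusted p = 1.32e-19) and 18.8-fold higher in S2-028 than in S2-020 (4.23 ± 0.0797, adjusted p = 1.80e-18). S2-028 and S2-007 overlapped, and their difference of -0.13 ± 0.0573 (adjusted p = 0.0862) did not pass the test.

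KRT7, the type II keratin of ductal and glandular epithelia, had a level of its own in each line. It was at 232, 221 and 261 CPM in S2-007, 44.3, 41.7 and 53.8 CPM in S2-020, and 895, 782 and 945 CPM in S2-028. No library of one line reached the range of another. S2-028 exceeded S2-007 by 3.68-fold (log2 fold change 1.88 ± 0.0725, adjusted p = 1.15e-14) and S2-020 by 18.8-fold (4.23 ± 0.0886, adjusted p = 8.33e-18), whereas S2-020 was 5.22-fold under S2-007 (-2.38 ± 0.0803, adjusted p = 4.00e-15). KRT7-AS, an antisense RNA that covers 13.6% of the exon bases of KRT7, was at 3.15 ± 0.454 CPM in S2-007, 2.61 ± 0.653 CPM in S2-020 and 10.3 ± 1.01 CPM in S2-028. Its log2 fold change was 1.70 ± 0.153 in S2-028 against S2-007 (adjusted p = 1.06e-08) and 1.98 ± 0.17 in S2-028 against S2-020 (adjusted p = 1.08e-08). In S2-020 against S2-007, where KRT7 was lower, KRT7-AS did not pass the test (-0.31 ± 0.208, adjusted p = 0.28). How the counting treated strand is not given in the sources used here, so that reads of KRT7 and of KRT7-AS may be mixed where they overlap.

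KRT23, a less abundant type I keratin of glandular epithelia, was highest in S2-028. Its counts were 43, 51 and 16 in S2-007, 4, 0 and 0 in S2-020, and 113, 187 and 169 in S2-028, without overlap between lines. S2-028 was higher than S2-007 by 2.34 ± 0.347 on the log2 scale (adjusted p = 1.24e-05). From summed counts, KRT23 was 142-fold higher in S2-028 than in S2-020 (95% counting interval 55.2 to 524) and 28.0-fold lower in S2-020 than in S2-007 (10.6 to 104). The edgeR fits of these comparisons gave log2 fold changes of 7.01 (adjusted p = 5.24e-09) and -4.69 (adjusted p = 4.97e-04). All reads in S2-020 came from replicate 1, without which the fitted log2 fold change went from 7.01 to 10.42 and from -4.69 to -8.24, respectively. KRT20, which marks intestinal epithelium, had 32 to 55 counts in S2-007, 10 to 22 in S2-020 and 6 to 16 in S2-028.

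KRT5 stood opposite to these keratins. This type II chain of basal cells had 1744, 2103 and 2192 counts in S2-020 (24.3, 25.3 and 30.6 CPM), 2, 0 and 14 counts in S2-007, and 10, 0 and 14 counts in S2-028. All libraries of S2-020 lay far above all libraries of the other lines. From the summed counts KRT5 was 371-fold higher in S2-020 than in S2-007 (95% counting interval 228 to 650) and 207-fold higher than in S2-028 (139 to 324). The fitted log2 fold change was 8.48 ± 0.292 in S2-020 against S2-007 (adjusted p = 5.69e-15). It was 10.78 without S2-007 replicate 3, which held 14 of the 16 counts of that line. The standard error of 0.292 does not cover this shift. In S2-028 against S2-020 the fitted log2 fold change was -7.68 ± 0.281 (adjusted p = 3.16e-14). It was -8.35 without S2-028 replicate 3 and -7.07 without S2-028 replicate 2. S2-028 and S2-007 overlapped (0.85 ± 1.14, adjusted p = 0.652). Of the KRT5 transcript, 8.15% in words of 31 bases was shared with other genes, mostly KRT6A, KRT6B and KRT6C, none of which exceeded 16 counts in any library.

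The partner of KRT5 did not follow it. KRT14, the type I chain that pairs with KRT5 in basal cells, had 16, 24 and 3 counts in S2-020, 11, 7 and 22 in S2-007, and 13, 9 and 33 in S2-028. All 3 lines overlapped for KRT14, and the log2 fold change in S2-020 against S2-007 was 0.02 ± 0.774 (adjusted p = 0.991). Of the KRT14 transcript, 46.82% in words of 31 bases was shared with other genes, KRT16 among them, so that reads of KRT14 may have been counted elsewhere or left out. KRT15, another type I keratin of basal cells, went the other way from KRT5. It was at 15.9, 14.7 and 14.6 CPM in S2-007, 14.8, 12.2 and 10.6 CPM in S2-028, and 1.17, 1.17 and 1.65 CPM in S2-020, which lay below both other lines. The log2 fold change of KRT15 was -3.54 ± 0.15 in S2-020 against S2-007 (adjusted p = 1.55e-13) and 3.24 ± 0.178 in S2-028 against S2-020 (adjusted p = 1.41e-11). TP63, the transcription factor that drives KRT5 and KRT14 in basal cells, was at 0.48 ± 0.237 CPM in S2-007, 0.501 ± 0.135 CPM in S2-020 and 0.416 ± 0.149 CPM in S2-028, and it passed the test in no comparison.

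The sequence before the start of KRT5, far higher in S2-020 than in the other lines, is shown beside that of KRT10, measured at no more than 26.8 CPM in every library of all of them. Both are the 250 bases upstream of the RefSeq start, 5′ to 3′ on the gene's strand, in GRCh38.p14, KRT5 from chr12:52520395-52520644 (minus strand) and KRT10 from chr17:40822615-40822864 (minus strand).
KRT5: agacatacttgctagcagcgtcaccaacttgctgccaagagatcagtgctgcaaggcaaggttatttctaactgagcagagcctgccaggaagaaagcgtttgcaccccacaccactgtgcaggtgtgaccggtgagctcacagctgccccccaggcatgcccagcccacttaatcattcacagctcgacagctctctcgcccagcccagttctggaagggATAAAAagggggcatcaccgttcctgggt
KRT10: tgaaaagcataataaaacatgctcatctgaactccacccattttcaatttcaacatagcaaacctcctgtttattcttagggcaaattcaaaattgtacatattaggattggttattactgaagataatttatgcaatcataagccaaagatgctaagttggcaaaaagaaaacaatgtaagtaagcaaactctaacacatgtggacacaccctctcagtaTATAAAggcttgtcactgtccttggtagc
Capitals mark the word TATAAA or ATAAAA where it began 35 to 25 bases before the start. Both genes hold one at 29 bases before the start, ATAAAA in KRT5 and TATAAA in KRT10. The RefSeq promoter table held 34 of the 55 keratins, and for 32 its start was that of the reference transcript (MANE Select). Such a word in that window was found in 23 of these 32, and in 2.98% of all 35116 promoters there. For KRT8 and KRT40 the start lay 21393 and 2675 bases away, so that they were not counted. Neither sequence held GGGCGG, the core of a binding motif of SP1, or TGANTCA, that of AP-1, on either strand. Of all promoters in the table, 42.6% held the former and 6.57% the latter in the same 250 upstream bases, on either strand. These matches describe letters only. The promoters of KRT7, KRT18, KRT19 and KRT80 were not analysed here.

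KRT80, a type II keratin found in many epithelia, set S2-007 apart. It was at 57.6, 49.7 and 62.4 CPM in S2-007, 141, 129 and 133 CPM in S2-020, and 134, 137 and 141 CPM in S2-028. KRT80 was higher in S2-028 than in S2-007 by 1.28 ± 0.0722 on the log2 scale (adjusted p = 6.06e-12) and in S2-020 than in S2-007 by 1.22 ± 0.0692 (adjusted p = 1.48e-11). S2-020 and S2-028 overlapped and differed by 0.03 ± 0.0542 (adjusted p = 0.712).

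KRT10, the type I keratin of the upper epidermal layers, had log2 fold changes of 0.26, -0.50 and 0.72 in S2-028 against S2-007, S2-020 against S2-007 and S2-028 against S2-020. It was at 21.7, 21.6 and 22.0 CPM in S2-007, 14, 16.6 and 16.7 CPM in S2-020, and 26.1, 26.8 and 25.2 CPM in S2-028. The lines did not overlap, but the log2 fold change was large enough for a call only in S2-028 against S2-020 (0.72 ± 0.0914, adjusted p = 2.00e-06), and there a test against a 1.5-fold change did not call it (adjusted p = 0.132). KRT10-AS1, which overlaps 2.85% of its exon bases from the other strand, was at 11.3 ± 0.925, 8.16 ± 0.97 and 15.4 ± 1.18 CPM in S2-007, in S2-020 and in S2-028. KRT13, the type I keratin of moist stratified epithelia such as the oesophagus, had 158, 98 and 94 counts in S2-007, 0, 4 and 0 in S2-020, and 80, 102 and 10 in S2-028. S2-020 was below both other lines, and S2-028 replicate 3 stood apart from the other libraries of its line. From summed counts KRT13 was 89.0-fold lower in S2-020 than in S2-007 (95% counting interval 34.5 to 329) and 58.2-fold higher in S2-028 than in S2-020 (22.4 to 216). The edgeR fits of these comparisons gave log2 fold changes of -6.39 (adjusted p = 4.59e-08) and 5.73 (adjusted p = 4.31e-05). All reads in S2-020 came from replicate 2, without which the fitted log2 fold changes went from -6.39 to -9.86 and from 5.73 to 9.07. The log2 fold change in S2-028 against S2-020 was 6.24 without S2-028 replicate 3. KRT13 shared 21.93% of its sequence words with other genes, mainly an antisense gene over 21.59% of its exon bases.

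KRT73, a keratin of the inner root sheath of hair, and KRT81, a hair keratin, were low and overlapped between lines. KRT73 lay between 1.16 and 1.98 CPM and KRT81 between 1.32 and 2.60 CPM over the 9 libraries, and neither was called in any comparison. KRT81 shared 53.24% of its sequence words with other genes, chiefly the hair keratin KRT86. KRT73 shared 26.8% with other genes, mostly its antisense gene KRT73-AS1. KRT222, a keratin-like type I gene without a complete rod, was at 0.668, 1.25 and 1.17 CPM in S2-007, 0.766, 0.866 and 0.781 CPM in S2-020, and 1.69, 1.52 and 1.87 CPM in S2-028. It was called in S2-028 against S2-020 (1.07 ± 0.267, adjusted p = 0.00274), and not by the test against a 1.5-fold change (adjusted p = 0.0772). In S2-028 against S2-007 the log2 fold change of KRT222 was 0.72 ± 0.286 (adjusted p = 0.0576). KRT222 shared 36.66% of its sequence words with a gene that overlaps it.

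The remaining calls were of keratins under 1 CPM in every line, named here because they were called. KRT86, a hair keratin, had 48, 89 and 68 counts in S2-020, 4, 2 and 6 in S2-007, and 18, 30 and 8 in S2-028, without overlap. It was higher in S2-020 than in S2-007 by 3.99 ± 0.535 on the log2 scale (adjusted p = 3.81e-06) and lower in S2-028 than in S2-020 (-1.58 ± 0.454, adjusted p = 0.00811). KRT86 shared 51.92% of its sequence words with other genes, chiefly KRT81. KRT16 and KRT17, which injured and fast-dividing epidermis makes, were highest in S2-007. KRT16 had 32 to 50 counts in S2-007, 6 to 8 in S2-020 and 16 to 22 in S2-028, fewer than its pseudogene KRT16P3 (238 to 554 in every library), with which it shared 22.9% of its words. In S2-028 against S2-007 the difference of KRT16 did not pass the test (-0.79 ± 0.472, adjusted p = 0.234). KRT17 had 11 to 30 counts in S2-007, 0 to 2 in S2-020 and 0 to 8 in S2-028, and it shared 39.81% of its words with other genes. KRT9, of the skin of palm and sole, had 36 to 44 counts in S2-007, 4 to 28 in S2-020 and 0 to 8 in S2-028. KRT31, a hair keratin, had 2 to 6 counts in S2-020 and 11 to 38 in S2-028. Several of these calls lay close to the threshold. In S2-028 against S2-007, KRT17 was called in 1 of 4 fits that left out 1 library and KRT20 in 2 of 6 (its log2 fold change stayed between -1.90 and -1.30), and in S2-020 against S2-007 KRT9 was called in 1 of 6 and KRT20 in 3 of 6. The call of KRT16 in S2-028 against S2-020 was lost in each of 6 such fits, with a log2 fold change of 1.69 to 2.02 in them, and that of KRT31 in 1 of 6.

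The order of abundance within a line was read per length, as TMM-normalized CPM per kilobase of the MANE Select transcript, the reference transcript of each gene. KRT8 was first in every line, at 2699 ± 114 in S2-007, 1632 ± 200 in S2-020 and 4737 ± 420 in S2-028. In S2-007, KRT19 (1528 ± 29.3) and KRT18 (1427 ± 71.7) came next with overlapping libraries, followed by KRT7 (146 ± 12.6), KRT80 (14.6 ± 1.65), KRT10 (10.2 ± 0.115) and KRT15 (8.80 ± 0.405). In S2-028, KRT18 (3426 ± 293) came before KRT19 (1391 ± 107) and KRT7 (538 ± 51.4), again followed by KRT80 (35.4 ± 0.988), KRT10 (12.2 ± 0.361) and KRT15 (7.32 ± 1.26). In S2-020, KRT18 (1191 ± 138) was followed at a distance by KRT19 (74.0 ± 9.27), and KRT80 (34.7 ± 1.6) came before KRT7 (28.7 ± 3.91), KRT5 (11.9 ± 1.51) and KRT10 (7.36 ± 0.698). Apart from KRT19 and KRT18 in S2-007, neighbours in this order among those just named did not overlap within a line.

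**Figure D3:**
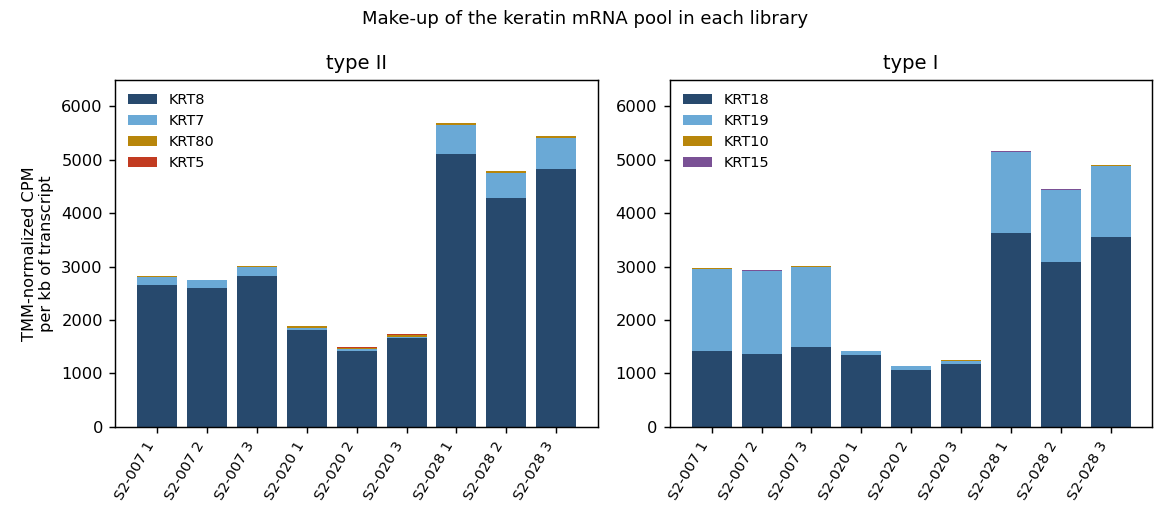
Stacked levels of the 4 leading keratins of each type in every library, in TMM-normalized CPM per kilobase of transcript, with bars starting at 0. S2-028 had the largest pool of both types, and KRT19 made up much of the type I pool in S2-007 and S2-028 but little of it in S2-020.

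Summed per length, the 26 type II keratins came to 2862 ± 128 in S2-007, 1710 ± 203 in S2-020 and 5313 ± 462 in S2-028, and the 29 type I keratins to 2977 ± 43.7, 1274 ± 143 and 4840 ± 362. Sums over members were not tested. The ratio of type II to type I was 0.947, 0.941 and 0.996 in the libraries of S2-007, 1.33, 1.30 and 1.39 in S2-020, and 1.10, 1.08 and 1.11 in S2-028, so that the lines did not overlap. The make-up of the type I pool differed more than its balance with type II. KRT18 made 47.9% ± 1.72 of type I in S2-007, 93.4% ± 0.633 in S2-020 and 70.7% ± 1.65 in S2-028, and KRT19 made 51.3% ± 1.7, 5.82% ± 0.602 and 28.8% ± 1.6. Among type II, KRT8 held 94.3% ± 0.231, 95.4% ± 0.463 and 89.2% ± 0.544, and KRT7 held 5.11% ± 0.207, 1.69% ± 0.236 and 10.1% ± 0.515, in the same order of lines. KRT5 was 0.705% ± 0.116 of type II in S2-020. The ratio of KRT8 to KRT18 was 1.89 ± 0.0261 in S2-007, above all libraries of S2-020 (1.37 ± 0.0384) and S2-028 (1.38 ± 0.027), which overlapped each other. The sequence shared by KRT8, KRT18 and their pseudogenes applies to this ratio. It also applies to the sums of type I and type II, to their ratio and to the shares within each type.

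By role, the 6 simple epithelial keratins (KRT7, KRT8, KRT18, KRT19, KRT20 and KRT23) made 99.3% ± 0.0235 of the keratin level per length in S2-007, 98.0% ± 0.206 in S2-020 and 99.4% ± 0.0536 in S2-028. All 6 were tested in each comparison. Of them, 4 were higher and 1 lower in S2-028 against S2-007, 5 were lower in S2-020 against S2-007, and 5 were higher in S2-028 against S2-020, beside 18.4%, 21.6% and 22.2% of all genes called in these comparisons. The 3 basal keratins made 0.153% ± 0.00755, 0.434% ± 0.0738 and 0.0745% ± 0.00942 of the level in S2-007, in S2-020 and in S2-028. The 17 hair keratins summed to 3.67 ± 0.112 CPM in S2-007, 4.02 ± 0.447 CPM in S2-020 and 4.34 ± 1.42 CPM in S2-028, and these groups overlapped.

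Keratin filaments attach to junctions through cytolinkers and plaque proteins, of which all 9 listed were tested. Of these, 1 was higher in S2-028 than in S2-007, 1 was higher and 3 lower in S2-020 than in S2-007, and 2 were higher and 1 lower in S2-028 than in S2-020, with medians of 0.33, -0.27 and 0.25. Of all genes 18.4%, 21.6% and 22.2% were called in these comparisons, with medians of 0.002, -0.053 and 0.025, and the single call of the first comparison is no excess over that share. JUP (plakoglobin), which links desmosomes to keratin, was at 159 ± 8.28 CPM in S2-007, 12.4 ± 1.4 CPM in S2-020 and 226 ± 26.6 CPM in S2-028. The log2 fold change of JUP was -3.72 ± 0.0789 in S2-020 against S2-007 (adjusted p = 3.70e-18). PPL (periplakin), like KRT80, was lowest in S2-007, at 50.1 ± 4.84 CPM in S2-007, 110 ± 2.4 CPM in S2-020 and 128 ± 9.69 CPM in S2-028. PKP3 (plakophilin 3) was lower in S2-020 than in S2-007 (-0.78 ± 0.0535, adjusted p = 2.70e-10), as was EVPL (envoplakin, -0.59 ± 0.0572, adjusted p = 4.41e-08). PLEC (plectin), the most abundant of them at 1618 to 2491 CPM, was lower in S2-028 than in S2-020 (-0.62 ± 0.0689, adjusted p = 3.70e-07). DSP (desmoplakin) was called in no comparison.

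Of 16 other intermediate filament genes, 12, 11 and 12 were tested in S2-028 against S2-007, S2-020 against S2-007 and S2-028 against S2-020. In these comparisons 1, 4 and 2 were higher and 1, 0 and 4 were lower, beside 18.4%, 21.6% and 22.2% of all genes called, and their medians were 0.09, 0.17 and 0.04. VIM (vimentin), the filament of mesenchymal and many cultured cells, was at 1467 ± 119 CPM in S2-007, 3220 ± 207 CPM in S2-020 and 420 ± 50.1 CPM in S2-028, the reverse of the order of KRT7 and KRT8. Its log2 fold change was -1.80 ± 0.073 in S2-028 against S2-007 (adjusted p = 2.57e-14) and 1.10 ± 0.0519 in S2-020 against S2-007 (adjusted p = 7.74e-13). NES (nestin) and SYNM (synemin), which assemble with vimentin, were also highest in S2-020, at 64.4 ± 6.37 and 43.0 ± 2.08 CPM. BFSP1 was at 1.5 ± 0.336 CPM in S2-007, 2.85 ± 0.384 CPM in S2-020 and 1.34 ± 0.619 CPM in S2-028.

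Of 14 epithelial transcription factors, all tested, 6 were higher and 3 lower in S2-028 against S2-007, 2 higher and 7 lower in S2-020 against S2-007, and 5 higher and 2 lower in S2-028 against S2-020, with medians of 0.29, -0.63 and 0.07, where 18.4%, 21.6% and 22.2% of all genes were called. GRHL2, a grainyhead factor that maintains epithelial genes, was at 27.8 ± 2.83 CPM in S2-007, 15.6 ± 1.36 CPM in S2-020 and 165 ± 4.58 CPM in S2-028 (2.57 ± 0.0773 on the log2 scale in S2-028 against S2-007, adjusted p = 2.05e-16). EHF was at 393 ± 26.1, 120 ± 10.8 and 291 ± 14.5 CPM and KLF5 at 570 ± 20.9, 300 ± 12.5 and 217 ± 10.5 CPM in S2-007, in S2-020 and in S2-028. In the same order, ELF3 was at 220 ± 15.5, 171 ± 15.2 and 105 ± 8.66 CPM. KLF4 was at 15.7 ± 2.43, 42.0 ± 2.37 and 29.0 ± 1.21 CPM, and OVOL1 at 2.94 ± 0.53, 0.239 ± 0.113 and 10.0 ± 1.21 CPM. TFAP2C, an AP-2 factor, like KRT5, was highest in S2-020, at 64.4 ± 6.33 CPM against 4.92 ± 0.206 in S2-007 and 17.1 ± 1.59 in S2-028. Among 14 cornified envelope genes 4, 5 and 3 were tested in S2-028 against S2-007, S2-020 against S2-007 and S2-028 against S2-020. Of these, 1, 1 and 1 were higher and 0, 1 and 0 lower, beside 18.4%, 21.6% and 22.2% of all genes called. With so few tested, these counts cannot be set apart from that share. FLG (filaggrin), which bundles keratin in the epidermis, was at 3.48 ± 0.705, 0.434 ± 0.197 and 6.93 ± 0.785 CPM in S2-007, in S2-020 and in S2-028. CNFN was at 0.216 ± 0.0826, 0.618 ± 0.0439 and 0.373 ± 0.139 CPM in the same order. It was called higher in S2-020 than in S2-007 (1.48 ± 0.476, adjusted p = 0.0166), where FLG was called lower.

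The keratin genes occupy 784 kb on chromosome 12 (from 52168996 to 52952906 in GRCh38.p14, 27 keratins) and 970 kb on chromosome 17 (from 40654665 to 41624575, 28 keratins). Members of one cluster moved in opposite directions. In S2-020 against S2-007, KRT5 and KRT80 were higher and KRT7 and KRT8 lower within the chromosome 12 cluster. The 50 nearest tested genes that are not keratins had median log2 fold changes of -0.16, 0.12 and -0.16 around the chromosome 12 cluster in S2-028 against S2-007, S2-020 against S2-007 and S2-028 against S2-020. Around the chromosome 17 cluster the medians were 0.12, -0.26 and 0.28. On chromosome 17 the keratins called in S2-020 against S2-007 were all lower, and 10 of the 50 neighbours were called lower and 4 higher. The neighbours of the chromosome 12 cluster had 9 called lower and 5 higher in the same comparison, in which 12.1% of all genes were called lower and 9.57% higher. JUP is itself a neighbour of the chromosome 17 cluster, 631 kb from its centre.

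**Figure D4:**
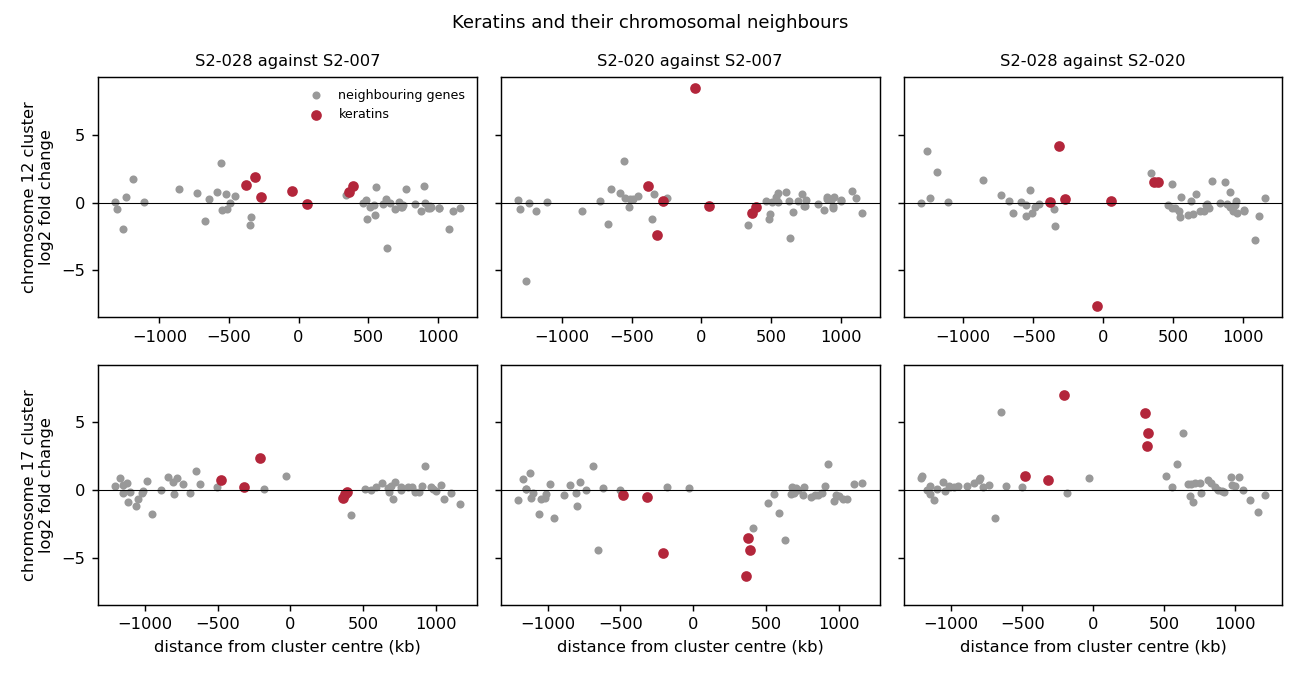
Log2 fold change against distance from the centre of each keratin cluster in kb, for the keratins among the 13 above (red) and the 50 nearest other genes tested (grey). In S2-020 against S2-007 the neighbours have medians of 0.12 and -0.26 but single genes reach far from 0 (JUP at -3.72), and the keratins shown range from -6.39 for KRT13 to 8.48 for KRT5.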

How the data were processed

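The SUIT-2 sublines were sequenced as 3 strand-specific libraries per line, grouped by their labels. Per the labels, the authors used Trimmomatic 0.39, BWA 0.7.17 against GRCh38.p14, SAMtools 1.12 and edgeR 3.16.5, and they deposited a table of whole-number read counts per gene without normalization. The paper names a different edgeR version and a likelihood ratio test. The counting tool and its handling of strand and of reads with several matches are not given in the sources used here. BWA does not join reads across introns, which can lose reads over exon junctions. Of the counts from 1 to 20, 74.6% to 76.1% were even in every library, so that mates may have been counted as separate reads and counting intervals may be too narrow. These intervals (exact Clopper-Pearson at 95% on the split of summed counts) and the floor of 3 counts cover counting error only. The authors also deposited 18 columns of normalized signal, made from the counts by scaling to library totals or with TMM factors, which were not used here, nor were 2 lines naming no gene.

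Counts were tested in R 4.3.3 with edgeR 4.0.16 (filterByExpr with a minimum count of 10 and total of 15, TMM, quasi-likelihood F-test, Benjamini-Hochberg adjustment over all genes tested), with the 6 libraries of the lines compared. Printed CPM use TMM factors from all 9 libraries. Standard errors of log2 fold changes were calculated back from the test, as the absolute log2 fold change over the square root of its F statistic. They are therefore not a separate estimate of spread, and where a line had few counts they can be too small. Lengths, shared words of 31 bases and overlaps came from GENCODE annotation of the same build, and promoters from RefSeq. The procedure was tested on simulated data. The alternatives were DESeq2 1.42.0, a likelihood ratio test, a test against a 1.5-fold change, other scalings and filters, all 9 libraries in one fit, a replicate block, and leaving out each library. Keratins with a mean of at least 1 CPM in any line were named, and of each partner list up to 4 called genes with the smallest adjusted p per comparison, besides members called under 1 CPM, KRT14, TP63 and DSP, which were named after their values were seen. The members and lists were chosen with earlier results of these data known. Protein sequences were not used here. Some results on marker genes are not reported here.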

Additional observations from a re-analysis of the deposited data

How the results depend on the processing

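Over 15 alternatives per comparison, the number of keratins called was 6 to 9 in S2-028 against S2-007, 7 to 15 in S2-020 against S2-007 and 7 to 13 in S2-028 against S2-020. It left 1.5 times the reported count only with at least 10 counts required in every library, which gave 7 and 7 in the comparisons with S2-020, since that setting tests fewer genes. The test against a 1.5-fold change called 2977, 3639 and 3638 of all genes in the 3 comparisons, and the other alternatives called up to 5141, 6068 and 6074. Of 578 alternative values for single keratins among the 13 above, 569 kept their direction and side of the threshold. The exceptions were KRT10 and KRT222, not called in S2-028 against S2-020 by the test against a 1.5-fold change, KRT222 in S2-028 against S2-007, called in 3 alternatives, and 4 changes of sign in differences that were never called. These were KRT73 in S2-028 against S2-007 without S2-028 replicate 2 (0.07, range -0.26 to 0.07 with 1 library left out), KRT73 in S2-028 against S2-020 without S2-028 replicate 3 (-0.04) or S2-020 replicate 2 (-0.03, range -0.04 to 0.30), and KRT80 in S2-028 against S2-020 without S2-020 replicate 2 (-0.00353, range -0.00353 to 0.06). Scaling by total counts alone moved the summed type I level of S2-007 to 3037, and adding pseudogene reads to their parents left its simple epithelial share at 99.3%, a move in later digits. The pseudogenes counted held too few reads to move that share. This alternative therefore does not address sequence shared with pseudogenes that were not counted. The median of the neighbours of the chromosome 17 cluster in S2-020 against S2-007 ranged from -0.26 to -0.16 when 1 library was left out, the latter without S2-007 replicate 3. The same alternatives were applied to the partner lists and to these neighbours after the data were seen, and the lists gave 12 to 15, 16 to 19 and 12 to 17 called genes.

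The labels number the libraries alike in each line, but same-numbered libraries did not deviate together (correlations from -0.0225 to 0.00614). With the replicate number as a block, 9, 13 and 12 keratins and 4865, 5650 and 5716 of all genes were called in S2-028 against S2-007, S2-020 against S2-007 and S2-028 against S2-020. Depth limits the keratins under 1 CPM, none of which had over 89 counts in any library.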
